A study of Bos taurus with 6 samples.

Results

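The genes of glucose uptake, glycolysis, lactate handling, the pyruvate dehydrogenase kinases, glycogen and the pentose phosphate pathway were examined in cultured bovine granulosa cells (GC), the steroid-producing cells that line the ovarian follicle. They were chosen by gene symbol, from a list of 43 symbols written for these pathways with earlier results of these data known. A row was present for 42 of them among the 26773 transcript clusters of the array table, a transcript cluster being the array's unit for a gene. The symbol PKM2 has no row of its own, and pyruvate kinase was read under PKM. The cells came from small to medium follicles of abattoir ovaries and were pools from many cows whose cycle stage was not defined. They were plated at a normal density of 100000 or a high density of 1000000 cells per well and kept serum-free for 9 days in α-MEM, in both groups with 20 ng/ml FSH, 50 ng/ml IGF-1, 2 μM androstenedione and insulin. RNA from 3 cultures of each density was measured on Bovine Gene 1.0 ST arrays, with 1 array per culture. The comparison asks how plating density affects expression of these genes.

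Glucose enters cells through facilitative transporters of the SLC2A (GLUT) family and is trapped by hexokinase as glucose 6-phosphate. From there the carbon can run down glycolysis to pyruvate, be stored as glycogen, or pass through the pentose phosphate pathway, which supplies NADPH and ribose. Pyruvate is either reduced to lactate by lactate dehydrogenase and exported by monocarboxylate transporters, or oxidized by the mitochondrial pyruvate dehydrogenase complex, which the pyruvate dehydrogenase kinases (PDK) inhibit. In the follicle GC use much glucose by glycolysis and pass pyruvate and lactate on to the oocyte, and glycolytic genes are known to respond to oxygen and to gonadotropins.

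All values are log2 signals made by the authors with RMA, so a difference of 1 is a doubling. A transcript cluster is termed called when limma's test gave a fold change (FC) over 1.5 in size with a p-value and an FDR below 0.05, the FDR taken over all 26773 transcript clusters. At high density 14 of the 42 genes were called up and 0 called down, against 3.97% called up and 3.51% called down, and 7.49% in either direction, among all transcript clusters. Among the 13077 transcript clusters with at least 1 group mean above a background level of 4.62, the 95th percentile of the 82 reporter control rows of the table, 6.95% were called up and 5.86% down. No gene of the list fell by as much as 1.5-fold, and 4 (SLC2A8, PDK3, PDK4 and PGM2) fell with an unadjusted p below 0.05. With an adjusted p below 0.05 at any FC 19 of the 42 genes rose and 1 fell, against 8.64% and 10.4% of all transcript clusters. The log2 fold change was above 0 in 35 of the 42 genes, against 53.6% of all transcript clusters, with a median of 0.22 for the 42 genes and 0.02 for all transcript clusters. In 31 genes all 3 high density cultures lay above all 3 normal density cultures, and in 4 genes below them, against 17.8% and 19.5% of all transcript clusters. Because the list was written with earlier results of these data known, these shares describe the listed genes only. They are not a test of the pathways. By branch, genes called up were 3 of 5 glucose transporters, 5 of 18 glycolytic genes, 2 of 4 lactate genes, 1 of 4 PDK genes, 2 of 7 glycogen genes, 0 of 3 pentose phosphate genes and PCK2.

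**Figure D1:**
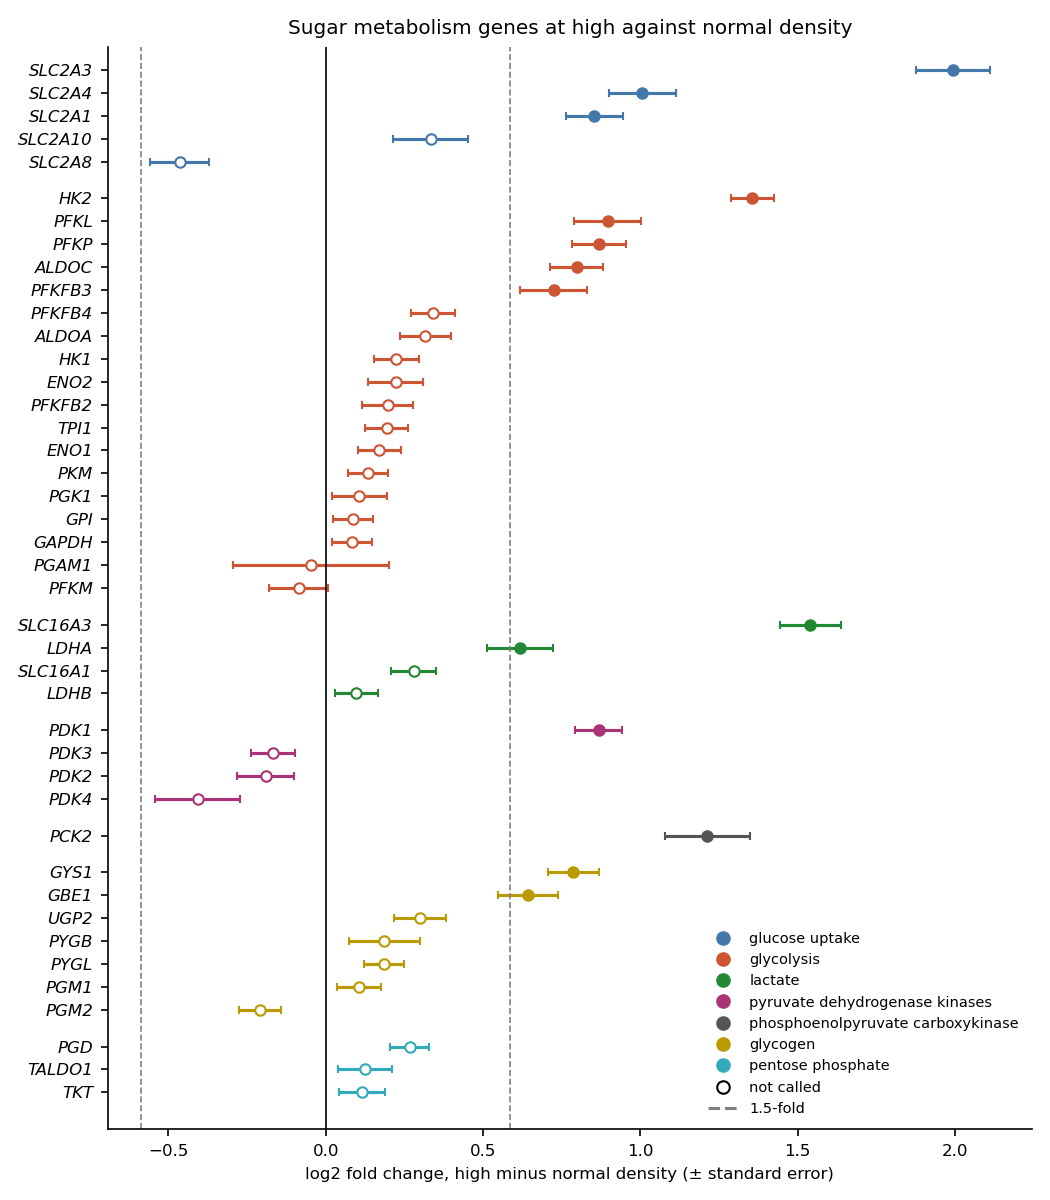
Log2 fold change, high minus normal density, with its standard error for each of the 42 genes, grouped by branch. Filled points are called and open points are not, dashed lines mark an FC of 1.5, and all 14 filled points lie to the right of 0.

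The labelled cell type was checked on 12 GC markers. In all 12 at least 1 group mean was above the background level, but 6 of them (FSHR, CYP19A1, INHA, INHBA, FOXL2 and FST) were called down at high density. Of the other 6, CYP11A1 rose (log2 fold change 0.26, adjusted p by limma 0.0294) and HSD3B1 fell (−0.28, adjusted p by limma 0.0234), neither being called. GATA4 and CDH2 (0.12 and 0.14) and AMH and NR5A1 (−0.18 and −0.28) did not pass the FDR threshold. Among markers of other cell types INSL3, 1 of 3 theca markers, was called up with a log2 fold change of 1.82. Of 5 fibroblast markers 3 rose with an adjusted p below 0.05 by limma, COL1A1 by 1.15, which was called, COL1A2 by 0.38 and PDGFRA by 0.32 on the log2 scale, and the groups of 4 did not overlap. HBA, 1 of 6 red blood cell markers, was below the background level at normal density and at least 27.0-fold higher at high density when set against that level. LHCGR, a marker of theca cells that GC of large follicles also express, was called down but lay below the background level at both densities, and so did CYP17A1 without being called. The other 5 red blood cell markers, all 6 leukocyte markers and 4 of 5 endothelial markers stayed at or below the background level in both groups, among them KDR, higher by 0.48, and TEK, lower with a log2 fold change of −0.36, both with an adjusted p below 0.05 by limma. The summed linear signal of the GC markers was between 13.26 and 13.33 at normal and between 13.02 and 13.04 at high density on the log2 scale. That of the fibroblast markers was between 12.31 and 12.35 and between 12.42 and 12.46. For the theca markers it was between 7.37 and 7.50 and between 8.94 and 9.23. For the red blood cell markers, all of them below the background level at normal density, it was between 5.58 and 5.62 and between 9.25 and 9.85. The higher theca sum at high density rests on INSL3 alone, and the higher red blood cell sum on HBA alone. The part of these cell types in the changes below was not tested. In RNA from whole cultures, fewer cells of a type and less RNA per cell cannot be told apart. High density replicate 2 stood apart from the other high density cultures, at Euclidean distances of 47.5 and 45.0 over all transcript clusters, while replicates 1 and 3 were 35.3 apart. Without it, 13 of the 14 genes were still called up, the exception being GBE1.

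The largest change among the 42 genes was that of SLC2A3 (transcript cluster 12864151), which encodes GLUT3, a transporter with a high affinity for glucose. Its log2 signals were 8.66, 8.83 and 8.49 in normal density replicates 1 to 3 and 10.72, 10.77 and 10.47 in high density replicates 1 to 3. The cultures of each density stayed close together, and the groups were far apart. The log2 fold change was 1.99 (SE 0.12, adjusted p by limma 6.85e-05), an FC of 3.98, and it was 1.93 without high density replicate 2. For SLC2A1 (12836031), which encodes GLUT1, the transporter of basal glucose uptake in most cells, the signals were 10.02, 10.14 and 9.92 at normal density and 10.93, 10.76 and 10.95 at high density. All high density cultures exceeded all normal density cultures here too, with a log2 fold change of 0.85 (SE 0.09, adjusted p by limma 7.71e-04). SLC2A4 (12761101) encodes the insulin-responsive transporter GLUT4. Signals of 4.323, 4.324 and 3.996 at normal density lay below the background level, and those of 5.31, 5.17 and 5.18 at high density lay above it. The measured log2 fold change was 1.01 (SE 0.11, adjusted p by limma 7.93e-04), which is at least 1.52-fold when the normal density signal is set to the background level.

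The remaining transporters were not called. SLC2A8, which encodes the mainly intracellular transporter GLUT8, had signals of 5.77, 5.64 and 5.68 at normal and 5.29, 5.06 and 5.36 at high density. It was the only 1 of the 42 genes that fell with an adjusted p below 0.05 (log2 fold change −0.46, SE 0.10, adjusted p by limma 0.0141), but its FC of 1.38 in size was below the threshold. Its adjusted p was 0.0611 by the t-test of the methods and 0.142 by the Welch version of that test. By limma it was 0.0606 without normal density replicate 1 and 0.0522 without normal density replicate 3, and below 0.05 without any other single culture. For SLC2A10 all high density cultures lay above all normal density cultures, but the log2 fold change of 0.33 (SE 0.12, adjusted p by limma 0.0987) did not pass the thresholds.

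**Figure D2:**
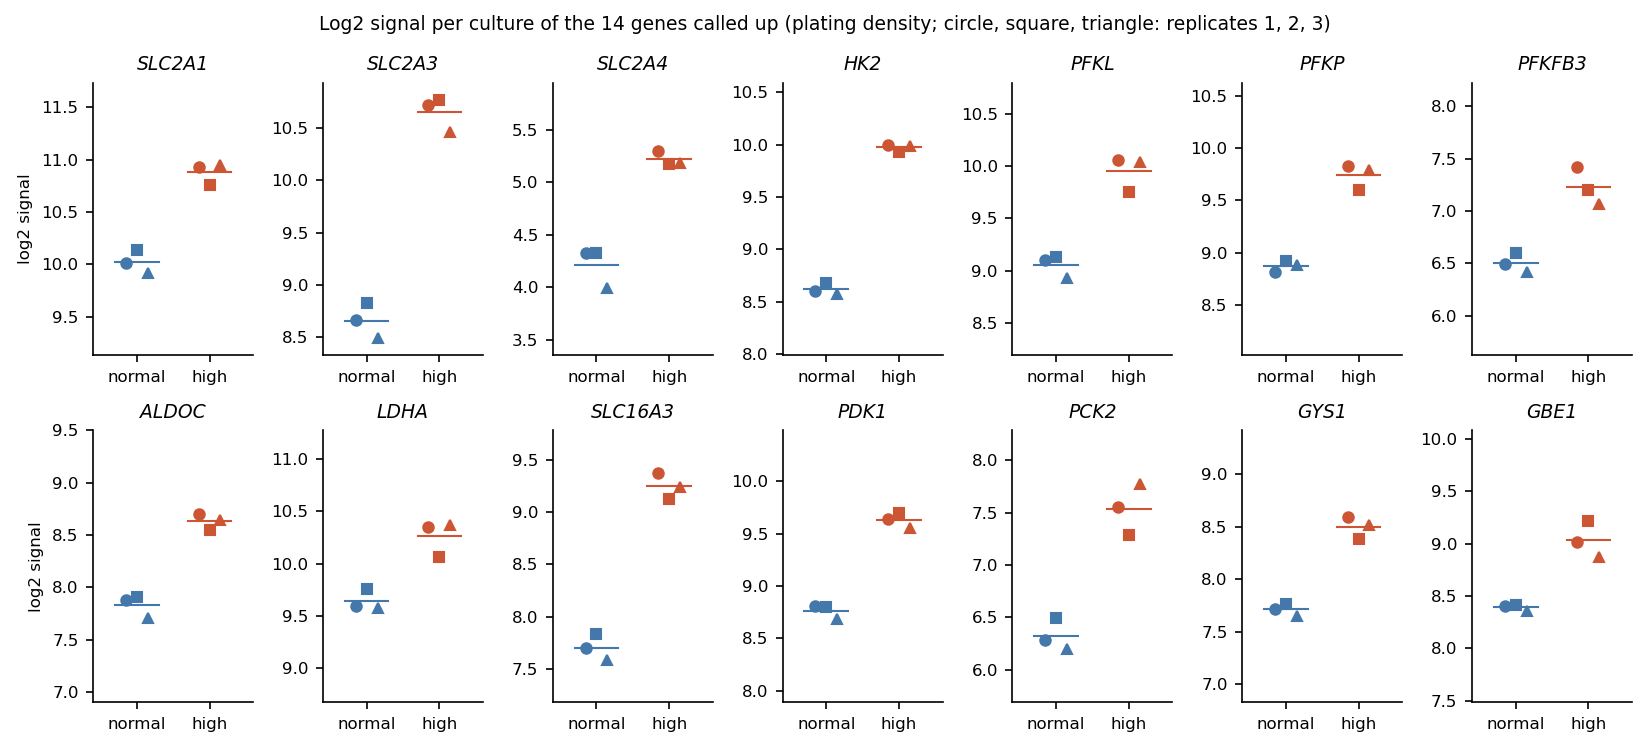
Log2 signal (vertical axes, each spanning the same range) of the 14 genes called up in the 3 normal density (blue) and 3 high density (orange) cultures, with group means as lines. In every panel the high density cultures lie above the normal density cultures, by the widest margin for SLC2A3.

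In glycolysis the called genes were the hexokinase HK2, the phosphofructokinases PFKL and PFKP, PFKFB3 and ALDOC. HK2 (12708674) encodes a regulated, mitochondria-associated hexokinase. With signals of 8.598, 8.679 and 8.576 at normal and 10.001, 9.934 and 9.985 at high density it showed little spread. Its log2 fold change of 1.36 (SE 0.07, adjusted p by limma 3.43e-05) was the largest among the glycolytic genes. PFKL (12679509) and PFKP (12718657) encode the liver-type and platelet-type subunits of phosphofructokinase, which catalyses the committed step of glycolysis. The signals of PFKL were 9.10, 9.13 and 8.93 at normal and 10.06, 9.75 and 10.04 at high density, and those of PFKP were 8.81, 8.92 and 8.88 and then 9.83, 9.59 and 9.79. High density replicate 2 was the lowest of its group for both genes, and still above every normal density culture. Their log2 fold changes were nearly equal, 0.90 (SE 0.11, adjusted p by limma 0.00133) for PFKL and 0.87 (SE 0.09, adjusted p by limma 5.71e-04) for PFKP.

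PFKFB3 (12718246) encodes a bifunctional enzyme that makes fructose 2,6-bisphosphate, the activator of phosphofructokinase. Its signals of 6.50, 6.60 and 6.42 at normal density and 7.42, 7.20 and 7.07 at high density gave a log2 fold change of 0.72 (SE 0.11, adjusted p by limma 0.00325). The related PFKFB4 rose by less, with a log2 fold change of 0.34 (SE 0.07, adjusted p by limma 0.0137), and PFKFB2 had a log2 fold change of 0.20 and an adjusted p of 0.145 from limma. ALDOC (12768020) encodes aldolase C, the isoenzyme best known from brain. It was measured at 7.88, 7.91 and 7.70 at normal and at 8.70, 8.54 and 8.65 at high density, which gave a log2 fold change of 0.80 (SE 0.08, adjusted p by limma 7.96e-04). The groups did not overlap for any of these genes.

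The other glycolytic enzymes changed less. PFKM, the muscle-type phosphofructokinase subunit, had overlapping groups and a log2 fold change of −0.09 (95% confidence interval −0.31 to 0.13). ALDOA, the muscle-type aldolase, rose by a log2 fold change of 0.32 (SE 0.08, adjusted p by limma 0.0333), below the FC threshold. TPI1, PGK1, ENO1, ENO2, PKM, GPI and GAPDH had log2 fold changes between 0.08 and 0.22 and did not pass the FDR threshold. GAPDH, the dehydrogenase often used as a reference gene, had signals of 11.65, 11.68 and 11.63 at normal and 11.73, 11.74 and 11.74 at high density. These groups did not overlap, but the log2 fold change was only 0.08 (95% confidence interval −0.06 to 0.23, limma's adjusted p = 0.412). Among 11 other common reference genes the log2 fold changes lay between −0.32 for B2M and 0.15 for GUSB. PGAM1 had signals between 4.47 and 5.50, close to the background level, and its log2 fold change of −0.05 had a 95% confidence interval from −0.63 to 0.53, so that a change of up to about this size was not detectable. HK1 and LDHA are each measured by a pair of transcript clusters, of which the brighter was used. The log2 fold changes of the HK1 clusters were 0.22 (12825884) and 0.10 (12825774), neither of them called.

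Whether a gene was called varied with its signal. Of the 10 genes with a normal density mean above 10, 9 had non-overlapping groups with the high density cultures above, and only SLC2A1 was called. Of the 15 genes with a mean above 8 and up to 10, 12 had such groups and 7 were called. Of the 15 genes with a mean above the background level and up to 8, 5 were called up, as was SLC2A4 but not PDK4 of the pair at or below that level. Among all transcript clusters 1.27% were called up in the range above 10, 3.71% from there down to 8, 6.28% from 8 down to the background level and 2.6% at or below it. In the ranges above 10 and from 8 to 10, 18.6% and 19.3% had non-overlapping groups with high density above. The highest signal in the table was 12.28, against 11.74 for GAPDH. Whether the range of the array limits the change of such bright genes was not tested.

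**Figure D3:**
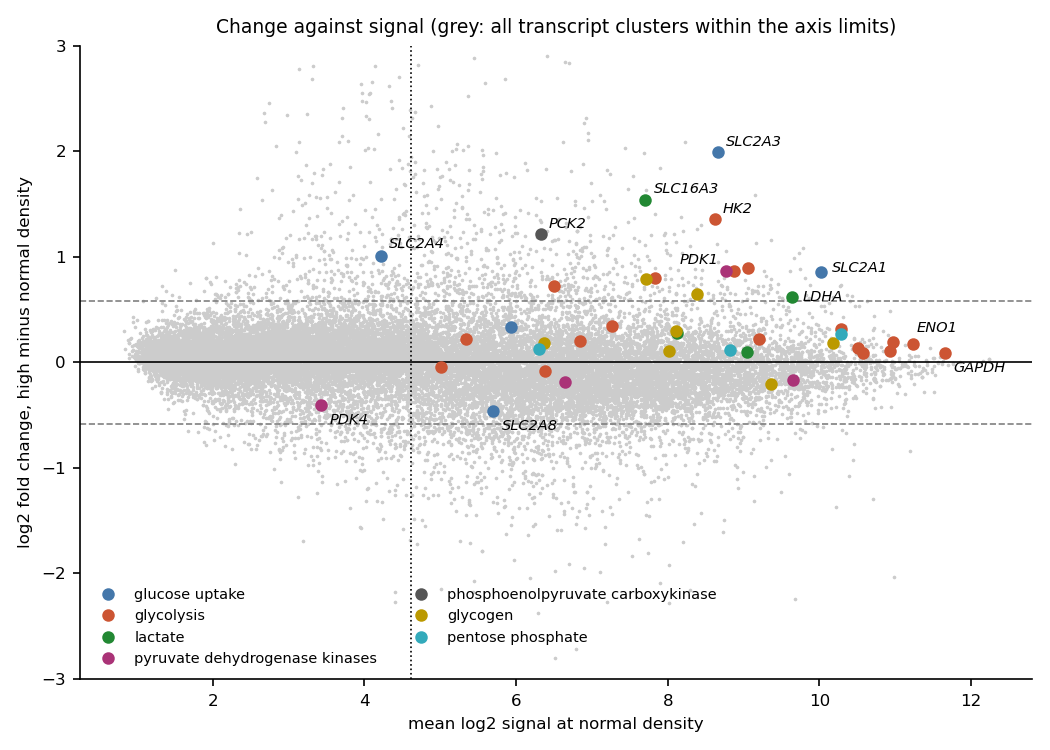
Log2 fold change (vertical axis, high minus normal density) against the mean log2 signal at normal density (horizontal axis) for all transcript clusters within the limits of the axes (grey) and for the 42 genes (coloured by branch). The dotted line is the background level of 4.62 and the dashed lines are an FC of 1.5. The glycolytic genes brighter than 10 all lie between 0 and the upper dashed line.

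At the end of the pathway, the exporter of lactate changed most. SLC16A3 (12769290) encodes MCT4, a monocarboxylate transporter known from strongly glycolytic cells. Signals of 7.70, 7.83 and 7.59 at normal density contrasted with 9.38, 9.12 and 9.24 at high density. The log2 fold change was 1.54 (SE 0.10, adjusted p by limma 9.37e-05), an FC of 2.91, and without high density replicate 2 it was 1.60. SLC16A1, which encodes the more widely expressed MCT1, rose with a log2 fold change of 0.28 (SE 0.07, adjusted p by limma 0.0340), below the FC threshold. LDHA (12910555), the lactate dehydrogenase subunit that favours lactate formation, was measured at 9.59, 9.76 and 9.58 at normal and 10.35, 10.06 and 10.37 at high density. Its FC of 1.53 (log2 fold change 0.62, SE 0.11, adjusted p by limma 0.00647) was just above the threshold. The call was lost without normal density replicate 3 (log2 fold change 0.58), without high density replicate 1 (0.57), without high density replicate 3 (0.56) and with the arrays centred on their medians (0.57). The second LDHA cluster (12832629) had a log2 fold change of 0.44, with a normal density signal below the background level. The log2 fold change of LDHB, the subunit typical of oxidative tissues, was 0.10 (95% confidence interval −0.06 to 0.25, limma's adjusted p = 0.364).

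Among the PDK genes only PDK1 passed the FDR threshold. PDK1 (12782531) had signals of 8.80, 8.80 and 8.68 at normal and 9.64, 9.69 and 9.56 at high density, which gave a log2 fold change of 0.87 (SE 0.07, adjusted p by limma 3.16e-04). PDK2, PDK3 and PDK4 had log2 fold changes of −0.19, −0.17 and −0.41, none of which passed the FDR threshold (limma's adjusted p = 0.191, 0.150 and 0.0796). For PDK2 and PDK3 the high density cultures nevertheless all lay below the normal density cultures. PDK4, the isoenzyme known to rise in fasting, was below the background level at both densities. The catalytic and structural genes of the complex that these kinases inhibit were among the other pathway genes described below, and PDHA1, PDHB, PDHX, DLAT and DLD had log2 fold changes between −0.22 and 0.02 (limma's adjusted p between 0.154 and 0.862).

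PCK2 (12693599) encodes mitochondrial phosphoenolpyruvate carboxykinase, which turns oxaloacetate into phosphoenolpyruvate and is also known as a gene of the amino acid stress response. Signals were 6.28, 6.49 and 6.20 at normal and 7.55, 7.29 and 7.77 at high density. The high density cultures spread more widely than the normal density cultures but did not overlap with them (log2 fold change 1.21, SE 0.14, adjusted p by limma 0.00100), and the FC was 2.32. Without high density replicate 2, the lowest of its group, the log2 fold change was 1.34.

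Both called glycogen genes belong to its synthesis. GYS1 (12759917) encodes glycogen synthase and was measured at 7.72, 7.76 and 7.65 at normal and 8.59, 8.39 and 8.52 at high density, which gave a log2 fold change of 0.79 (SE 0.08, adjusted p by limma 6.79e-04). GBE1 (12686922), the branching enzyme, had signals of 8.41, 8.41 and 8.35 and then 9.01, 9.21 and 8.88, a log2 fold change of 0.64 (SE 0.10, adjusted p by limma 0.00360). High density replicate 2 was the highest here, and without it the log2 fold change was 0.55 and GBE1 was not called. UGP2, which makes the UDP-glucose that glycogen synthase uses, rose below the FC threshold (log2 fold change 0.30, limma's adjusted p = 0.0441). The phosphorylases that break glycogen down, PYGL and PYGB, had log2 fold changes of 0.18 (95% confidence interval 0.04 to 0.33, limma's adjusted p = 0.0886) and 0.19 (−0.08 to 0.45, limma's adjusted p = 0.308). PGM1 and PGM2, which interconvert sugar phosphates, had log2 fold changes of 0.11 and −0.21 and did not pass the FDR threshold.

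In the pentose phosphate pathway none of the 3 genes was called. PGD, a dehydrogenase that produces NADPH, had signals of 10.31, 10.28 and 10.28 at normal and 10.54, 10.56 and 10.57 at high density. It thus rose with very little spread but a log2 fold change of only 0.27 (SE 0.06, adjusted p by limma 0.0241). TKT and TALDO1, which shuttle carbon back into glycolysis, had log2 fold changes of 0.12 each, with overlapping groups (limma's adjusted p = 0.320 and 0.364).

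Isoenzymes were compared within each culture by the log2 ratio of their signals, over 22 pairs from 11 families. The ratio shows unequal change and does not show which isoenzyme is more abundant, since signals of different transcript clusters are not on one scale. In 15 pairs the ratios of the 3 high density cultures did not overlap with those of the normal density cultures, and an exact two-sided permutation test then gave p = 0.1, the smallest that 3 cultures against 3 allow (0.147 after Benjamini-Hochberg adjustment over the pairs). The pairs share genes, so they are not independent. Each ratio was written in the direction in which it rose, and the share among other pairs of transcript clusters was not computed. The count of 15 therefore only describes these pairs. Ratios to SLC2A4 and PDK4 rest on signals at or below the background level in at least 1 group. The ratio of HK2 to HK1 was higher at high density by 1.13 on the log2 scale, with single cultures between 1.08 and 1.17 above the normal density mean. The ratio of SLC16A3 to SLC16A1 was higher by 1.26, that of SLC2A3 to SLC2A1 by 1.14, that of PDK1 to PDK3 by 1.03 and that of ALDOC to ALDOA by 0.48. For LDHA to LDHB the difference was 0.52, with 0.27 in high density replicate 2 and 0.62 and 0.66 in replicates 1 and 3. Both PFKL and PFKP gained on PFKM, by 0.98 and 0.95, while the ratio of PFKL to PFKP differed by only 0.03 with overlapping groups (exact permutation test, p = 0.8). Some other pairs, such as PYGB to PYGL and ENO2 to ENO1, overlapped as well.

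**Figure D4:**
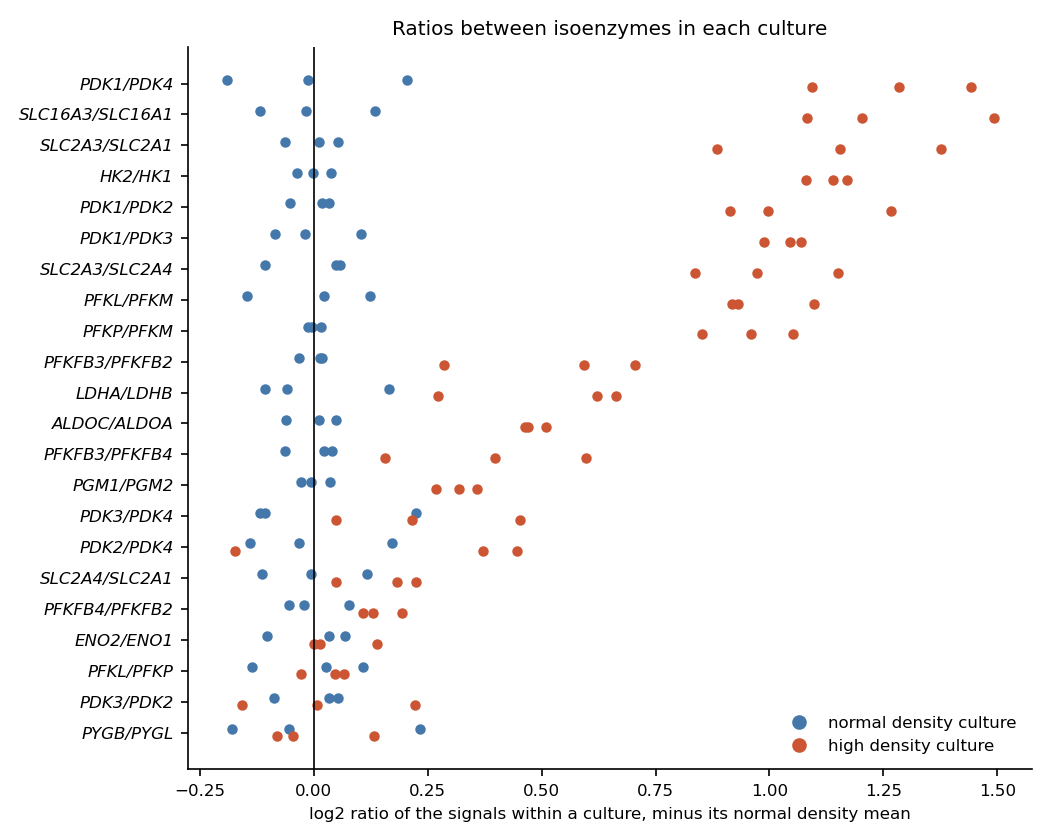
Log2 ratio of the signals of isoenzymes within each culture, minus the mean of that ratio at normal density (horizontal axis), for 22 pairs (vertical axis) in normal (blue) and high (orange) density cultures. The ratios to HK1, SLC16A1, PFKM and PDK3 shift by about 1, and the lowest pairs overlap.

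Of 70 further genes of these pathways 69 were found in the table, 3 of them under older symbols. At high density 8 were called up and 2 down, or 11.6% and 2.90%, against 3.97% and 3.51% of all transcript clusters. Their log2 fold change was above 0 in 37 of the 69, or 53.6%, against 53.6% of all transcript clusters, with a median of 0.03. Of the 69 genes, 23 were at or below the background level in both groups.

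The largest rise among them was that of PPP1R3C (12822964), a subunit that targets protein phosphatase 1 to glycogen and thereby activates glycogen synthase. Its signals of 4.33, 4.52 and 4.54 at normal density were below the background level, and those of 7.17, 7.26 and 7.06 at high density were far above it. The log2 fold change was 2.70 (SE 0.09, adjusted p by limma 1.07e-05), at least 5.82-fold against the background level. Another such subunit, PPP1R3B, had a log2 fold change of 0.73 (SE 0.08, adjusted p by limma 7.23e-04). GYG2, a glycogenin, the protein primer of glycogen, had signals of 5.44, 5.50 and 5.38 and then 6.69, 6.47 and 6.65 (log2 fold change 1.16, SE 0.08, adjusted p by limma 1.53e-04). The other glycogenin, GYG1, had means of 7.90 and 7.93 with overlapping groups (log2 fold change 0.03, limma's adjusted p = 0.814). PHKB, the regulatory beta subunit of the kinase that activates glycogen phosphorylase, fell from 7.44, 7.54 and 7.51 to 6.50, 6.89 and 6.71 (log2 fold change −0.80, SE 0.11, adjusted p by limma 0.00220). Of the phosphorylase kinase alpha subunits, PHKA2 rose with a log2 fold change of 0.48 and PHKA1 fell with −0.25, both below the FC threshold (limma's adjusted p = 0.00372 and 0.0394). In all, 3 of these 19 further glycogen genes were called up and 1 down, or 15.8% and 5.26%, against 3.97% and 3.51% of all transcript clusters. The log2 fold change was above 0 in 9 of the 19 and below 0 in 10, with a median of −0.04.

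**Figure D5:**
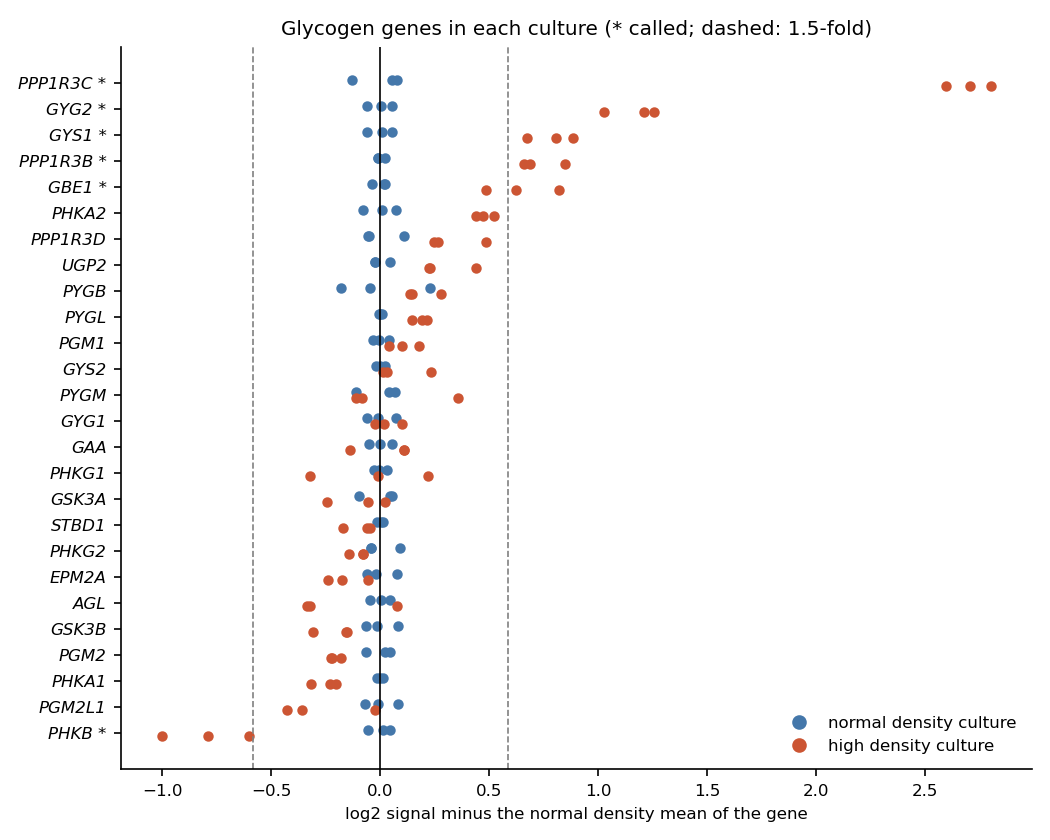
Log2 signal of each glycogen gene minus its normal density mean (horizontal axis) in normal (blue) and high (orange) density cultures, for the 7 genes of the list and 19 further genes (vertical axis). Asterisks mark called genes, and PPP1R3C lies farthest to the right and PHKB farthest to the left.

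Outside glycogen, MPC1 (12901466, listed under the older symbol BRP44L) encodes a subunit of the carrier that brings pyruvate into mitochondria. It rose from 6.72, 6.83 and 6.79 to 7.59, 7.76 and 7.71, a log2 fold change of 0.91 (SE 0.08, adjusted p by limma 2.76e-04). Its partner subunit MPC2 had a log2 fold change of 0.18 with overlapping groups (limma's adjusted p = 0.281). FBP1, the gluconeogenic fructose bisphosphatase that opposes phosphofructokinase, was below the background level at normal density and above it at high density (log2 fold change 1.12, limma's adjusted p = 3.05e-04, at least 1.79-fold). SLC16A7, which encodes the monocarboxylate transporter MCT2, was called down (log2 fold change −0.59, limma's adjusted p = 0.0108), with an FC just past the threshold. SLC2A13, a transporter of myo-inositol, was called up, also just past the FC threshold. TKTL1 was called as well, but its signals were below the background level at both densities.

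Averaged over the 42 genes, the log2 signal of high density replicates 1, 2 and 3 lay 0.42, 0.37 and 0.41 above the mean of the normal density cultures, which themselves lay between −0.05 and 0.05. For the 14 called genes these averages were 1.08, 0.94 and 1.01, and they describe genes selected for their rise. The branches differed in which high density culture was lowest. The average of the glycolytic genes was 0.38, 0.33 and 0.38 in high density replicates 1 to 3, lowest in replicate 2. The average of the PDK genes was 0.06, 0.08 and −0.06, and that of the glycogen genes was 0.29, 0.30 and 0.27, both lowest in replicate 3. In the remaining branches replicate 2 was the lowest. High density replicate 2 was the lowest of its group in 27 of the 42 genes, 64.3%, and in 43.9% of all transcript clusters.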

How the data were processed

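The deposited table holds log2 signals per transcript cluster, which the authors made from the scanned arrays with Affymetrix Expression Console by RMA (background reduction, normalization and gene-level summary). It holds 0 columns of other samples. The genome build behind the transcript clusters is not given in the sources used here. No further normalization was applied. RMA places the arrays on a common distribution, so changes are relative to the other genes. The array medians lay between 4.34 and 4.43. The number of arrays limits the precision. The labels do not say whether cultures come from separate cell pools, so the p-values measure the spread between these cultures.

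The 3 high and 3 normal density cultures were compared by limma (version 3.58.1, under R 4.3.3), using eBayes after lmFit without covariates ( Benjamini-Hochberg adjustment over 26773 transcript clusters). Thresholds were those of the study's methods. Where a symbol had several transcript clusters, that with the highest mean signal was used. Errors are standard errors of the log2 fold change, and confidence intervals are at 95%. Bounds against the background level take the higher group mean over that level. Older symbols were matched by RefSeq accession. The members and gene lists were chosen with earlier results of these data known. Any of the 42 genes could be named, and of the further pathway genes those called with non-overlapping groups, at most 10. Some of the further pathway genes are counted but not reported by name here. Other further pathway genes named were chosen after their values were seen. The fit was tested on simulated data. Figures were drawn with matplotlib 3.10.9. The alternatives were the t-test that the methods' analysis of variance amounts to and its Welch version, array weights, a filter at the background level, a block for the replicate number, trended robust variances, quantile normalization for a second time, median centring of arrays, other thresholds, limma's treat, averaging of transcript clusters and leaving out each culture. Promoter and protein sequences and genome positions were not used here.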

Additional observations from a re-analysis of the deposited data

How the results depend on the processing

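The count of 14 genes called up was the same, and made of the same genes, with the methods' t-test, with trended robust variances, with a second quantile normalization, with the filter at the background level and at an adjusted p under 0.01. SLC2A4 passed the filter only through its high density mean, so the filter does not test its call. With trended robust variances TPI1, ENO1 and HK1 passed the FDR threshold but not the FC threshold (adjusted p by limma 0.0151, 0.0250 and 0.0207). PGK1, GPI and GAPDH passed neither. With the filter TPI1 and HK1 also passed the FDR threshold (adjusted p by limma 0.0406 and 0.0279), and ENO1 did not (0.0634). The count was 8 with the Welch version of the test. With treat, which tests for a change beyond 1.5-fold itself, it was 3 (SLC2A3, HK2 and SLC16A3). Without the FC threshold 19 genes rose and 1 fell. With each culture left out it was between 13 and 14, and 12 genes were called each time, the exceptions being LDHA and GBE1. GBE1 was also lost with array weights (log2 fold change 0.56) and LDHA with the mean of its transcript clusters (0.53). Over all transcript clusters the count of 2005 became 838 with the Welch version, 529 with treat and 5106 without the FC threshold, and was between 1848 and 2434 with each culture left out, the highest without high density replicate 2. Of the further pathway genes, 8 called up became 5 with the Welch version, 3 with treat and 14 without the FC threshold. The 2 called down became 0 with the Welch version and with treat, 1 with the methods' t-test and at an adjusted p under 0.01, and 5 without the FC threshold, and were between 1 and 2 with each culture left out, with 1 lost without normal density replicate 1 or 3 or high density replicate 1 or 3. The log2 fold change of PGAM1 turned from −0.05 to 0.09 without normal density replicate 1 and to 0.20 without high density replicate 1, and was between −0.31 and 0.20 with each culture left out. The median log2 fold change of the 42 genes was between 0.18, with median centring, and 0.25. With median centring 46.0% of all called transcript clusters were up, against 53.1%. Cultures with the same replicate number did not deviate together (correlations of their deviations of 0.05, −0.05 and −0.04), and with the replicate number as a block 14 of the 42 genes and 2020 of all transcript clusters were called. Signals near the background level limit the changes of SLC2A4, PDK4 and PGAM1.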
